A study of Mus musculus with 2 samples.

Results

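Ribosomal protein genes were picked by symbol: Rpl or Rps followed by a number, and Rplp0 to Rplp2, without the S6 kinases whose symbols begin with Rps6k. The rule found 86 of the 24015 genes in the expression table. Of these, 76 encode core ribosomal proteins, 9 are paralogs or retrocopies of a core gene (Rpl3l, Rpl7l1, Rpl10l, Rpl22l1, Rpl36al, Rpl39l, Rps4l, Rps27l and Rps27rt), and 1, Rps19bp1, encodes a protein that binds a ribosomal protein. The RNA came from cultured mouse embryonic fibroblasts, a connective tissue cell grown out of embryos. One library was labelled Adar2-WT, with the genotype Adar2+/+, and the other Adar2-KO, with the genotype Adar2-/-. Adar2, whose gene symbol is Adarb1, edits RNA by turning adenosines of paired stretches into inosines. Both cultures were grown in DMEM with 10% fetal bovine serum and penicillin-streptomycin. Nothing in the labels says how many embryos or cell lines stand behind a library, or which library was made with the TruSeq and which with the Nextera kit, so a difference of genotype, of culture and of kit cannot be told apart.

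The ribosome joins a small and a large subunit, and with few exceptions each core protein is present in a single copy per ribosome, so the cell needs them in similar amounts. Many of their mRNAs begin with a C followed by a run of pyrimidines, the terminal oligopyrimidine or TOP motif, through which growth signalling sets their translation. Most core genes have many intronless pseudogene copies in the mouse genome, and some have a second functional gene, a paralog, that is made mainly in one tissue such as the testis or muscle.

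With 1 library per genotype there was no replicate check and no test of a genotype effect. The deposited RPKM values (reads scaled to gene length and library size) were resolved into whole reads for 17398 of the 17981 genes above 0, with totals of 9446911 reads in the WT-labelled and 9546997 in the KO-labelled cells. Exact 95% intervals on these reads are given below and cover counting error only. Adarb1 itself was at 18.4 RPKM in WT-labelled cells and at 25.8 RPKM in KO-labelled cells, so its RNA level went against the label. Which part of the gene was deleted is not given, so this level alone cannot check the label. The editing lists ran with the labels, with 654 sites in the WT-labelled and 110 in the KO-labelled list. The cells are called WT-labelled and KO-labelled throughout. Of 12 fibroblast markers 11 were at 1 RPKM or more in each library, with sums of 481 and 510 RPKM. Sums were 77.1 and 31.8 RPKM for 4 neural markers, 45.0 and 8.10 RPKM for 6 immune markers, and 3.998 and 0.409 RPKM for 4 endothelial markers in the WT-labelled and KO-labelled cells.

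The outcome for the members fell into a narrow band with a single exception. Genes entered the comparison if the larger of their 2 values reached 1 RPKM, and ratios were taken as log2 of KO-labelled over WT-labelled RPKM after adding 1 RPKM to each. Of the 83 members compared, 82 lay within 2-fold of equality. No member was at least 2-fold higher in the KO-labelled cells, against 4.42% of all 13867 compared genes. Rps4l alone was lower by 2-fold or more, against 7.46% of all compared genes. The remaining 3 members, Rpl3l, Rpl10l and Rpl39l, were at or near 0 in both libraries.

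**Figure D1:**
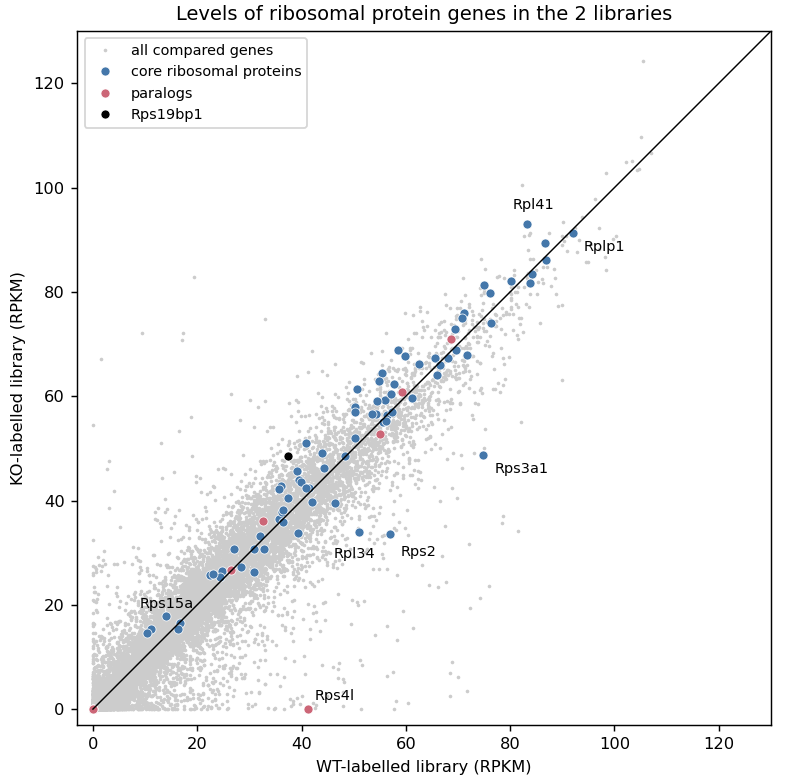
RPKM of each gene in the WT-labelled cells (horizontal axis) and the KO-labelled cells (vertical axis), on linear scales. Grey points are all 13867 compared genes, blue points the 76 core ribosomal proteins, red points the 9 paralogs and the black point Rps19bp1, and the line marks equal values. Core genes follow the line from 10.4 to 93.1 RPKM, while Rps4l sits at 41.2 RPKM in the WT-labelled cells and 0 in the KO-labelled cells.

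The 76 core genes spanned 10.4 to 92.1 RPKM in the WT-labelled cells, with a median of 50.8 RPKM. In the KO-labelled cells they spanned 14.6 to 93.1 RPKM, with a median of 53.5 RPKM. The highest core gene was thus 8.89-fold above the lowest in the WT-labelled cells and 6.38-fold above it in the KO-labelled cells. The order of the core genes was much the same in both libraries (Spearman's rho 0.94 over 76 genes, a description of 2 libraries with the same gene lengths). Between the bounds of 20 and 60 RPKM lay 49 core genes in the WT-labelled cells and 44 in the KO-labelled cells, with 5 below in each. The median core gene stood at the 91.7 percentile of the compared genes in the WT-labelled cells and at the 93.6 percentile in the KO-labelled cells.

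At the top of the core was Rplp1, a protein of the flexible stalk that recruits elongation factors, at 92.1 and 91.3 RPKM in the WT-labelled and KO-labelled cells (407 and 408 reads). Rpl41, the smallest ribosomal protein, was at 83.2 and 93.1 RPKM (353 and 399 reads). Rpl32, of the large subunit, was at 86.7 and 89.4 RPKM (413 and 430 reads). The exact Poisson intervals of these 3 genes overlapped in each library, so their order was not resolved. At the bottom were Rps15a at 10.4 and 14.6 RPKM, Rpl38 at 11.2 and 15.3 RPKM (39 and 54 reads) and Rps21 at 16.2 and 15.3 RPKM (60 and 57 reads). The gene model behind Rps15a was 5134 bases long, the longest of the core, against a core median of 703 bases, and its 502 and 715 reads were above the core medians of 341 and 362 reads. Over the 75 core genes with a recovered length, RPKM was only weakly related to length (Spearman's rho -0.10 and -0.09, descriptions across genes).

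The most abundant genes of the whole table reached only 107 and 124 RPKM in the WT-labelled and KO-labelled cells. Expressed as reads per base of gene model, the highest values among genes of at least 200 bases were 0.997 and 1.19. Core genes ran from 0.0978 to 0.870 reads per base, with a median of 0.480, in the WT-labelled cells, and from 0.139 to 0.889, with a median of 0.511, in the KO-labelled cells. Of the 76 core genes 26 (34.2%) stood above 0.593 reads per base, midway between 0 and the highest value, in at least 1 library, against 3.89% of all compared genes. Together the 82 compared members with recovered reads took 0.338% of the reads in the WT-labelled cells and 0.344% in the KO-labelled cells. How repeated or multiply aligned reads were counted is not given in the sources used here, and its part in this narrow range was not tested.

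The ratios of the core genes lay close to equality, on a scale on which many core genes stood high in the narrow range of reads per base. Their median log2 ratio was 0.06 and their median absolute log2 ratio 0.08, beside 0.01 and 0.21 over all compared genes, and 0.01 and 0.15 over the 9086 other genes in the same range of mean RPKM, whose median level was lower (28.0 RPKM against 50.8 in the WT-labelled cells). The median absolute log2 ratio was 0.07 for the 26 core genes above 0.593 reads per base and 0.09 for the other 50. A compression of ratios at high levels was not tested. No core gene was 2-fold apart, whereas 3.71% of those 9086 genes were. Of 75 core genes with recovered reads, 11 had an interval of the read ratio wholly above 0 and 4 wholly below, against 27.6% and 27.1% of all genes with reads. The intervals of the core genes were somewhat wider, reaching a median of 0.22 to either side on the log2 scale against 0.19 over all compared genes, and the core genes held fewer reads, with a median of 341 against 477 in the WT-labelled cells.

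The split into higher and lower genes depended on the scaling. By RPKM, 48 of 76 core genes (63.2%) were higher in the KO-labelled cells and 28 lower, against 50.8% higher among all compared genes. The fold changes in the authors' deposited table are 0.0523 higher on the log2 scale than the RPKM ratios, and by these 65 of 76 core genes (85.5%) were higher, against 58.0% of all compared genes. The authors' GFOLD value, a fold change shrunk towards 0 by its counting error, was 0 for 61 core genes, above 0 for 12 and below 0 for 3. Over all compared genes it was above 0 for 29.7% and below 0 for 20.2%. A GFOLD value of 1 or more was reached by none of the members, against 3.21% of all compared genes, and one of -1 or less by Rps4l alone, against 5.6%.

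**Figure D2:**
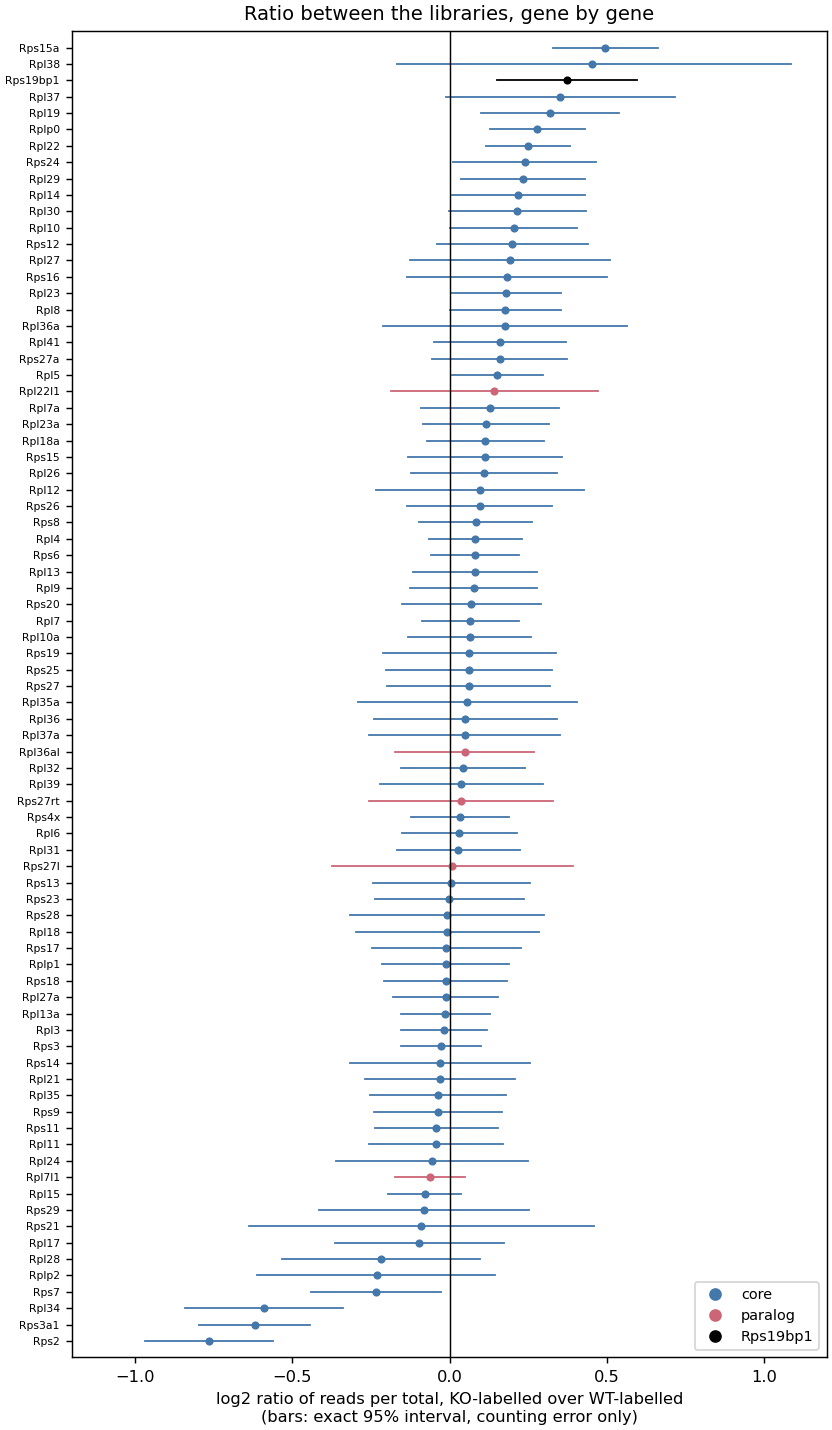
Log2 ratio of reads per library total, KO-labelled over WT-labelled, for 80 of the 81 compared members with reads in both libraries and recovered counts, sorted by value (1 is not shown). Points are the ratios and bars their exact 95% intervals, which cover counting error only. Rps2, Rps3a1 and Rpl34 stand apart at the lower end, Rps15a and Rpl38 at the upper end, and most bars cross 0.

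In the small subunit, Rps2, a protein near the entry channel for mRNA, had the lowest ratio of all core genes. Its values were 57.0 RPKM (538 reads) in the WT-labelled cells and 33.6 RPKM (320 reads) in the KO-labelled cells, a log2 read ratio of -0.76 with an interval of -0.97 to -0.56. Rps3a1, which encodes another small subunit protein, was at 74.9 RPKM (667 reads) and 48.8 RPKM (439 reads), a log2 read ratio of -0.62 with an interval of -0.80 to -0.44. Both were lower in the KO-labelled cells by more than counting error, and both had a GFOLD value below 0 (-0.48 and -0.36). Rps7, also of the small subunit, was at 46.4 and 39.5 RPKM (421 and 362 reads), with an interval of -0.44 to -0.03, but its GFOLD value was 0. At the other end, Rps15a had 502 and 715 reads, a log2 read ratio of 0.50 with an interval of 0.33 to 0.66. Over the 30 small subunit genes 16 were higher and 14 lower by RPKM, with a median log2 ratio of 0.02, but 25 were higher and 5 lower by the fold changes in the authors' deposited table. The shares higher were 53.3% by RPKM and 83.3% by the authors' values, against 50.8% and 58.0% of all compared genes. Among the 29 with reads, 2 intervals (6.90%) lay above 0 and 3 (10.3%) below, against 27.6% and 27.1% of all genes with reads.

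In the large subunit, Rpl34 was at 51.0 RPKM (332 reads) in the WT-labelled cells and 33.9 RPKM (223 reads) in the KO-labelled cells, a log2 read ratio of -0.59 with an interval of -0.84 to -0.34. It was the only one of the 46 large subunit and stalk genes whose interval lay below 0. Rpl19 was at 40.9 and 51.0 RPKM (311 and 392 reads), with an interval of 0.10 to 0.54. Rpl22, known also as a binder of its own paralog's RNA, was at 36.1 and 42.9 RPKM (851 and 1022 reads), with an interval of 0.12 to 0.38. These 2 genes were higher in the KO-labelled cells beyond counting error. Rpl38, which is required for the translation of certain Hox mRNAs, and Rpl37, at 13.9 and 17.8 RPKM, had log2 read ratios of 0.45 and 0.35. With 39 to 147 reads behind each value, their intervals of -0.17 to 1.09 and -0.01 to 0.72 still spanned 0. In all, 32 of the 46 genes were higher and 14 lower by RPKM (40 and 6 in the authors' deposited table), with a median log2 ratio of 0.07. The shares higher were 69.6% by RPKM and 87.0% by the authors' values, against 50.8% and 58.0% of all compared genes. Intervals lay above 0 for 9 genes (19.6%) and below for 1 (2.17%), against 27.6% and 27.1% of all genes with reads.

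Of the stalk proteins, Rplp0 alone had an interval clear of 0. Rplp0, the base of the stalk, was at 50.7 RPKM (651 reads) in the WT-labelled and 61.5 RPKM (798 reads) in the KO-labelled cells, with an interval of the log2 read ratio of 0.13 to 0.43. Rplp1 was nearly equal, as given above, and Rplp2, its dimer partner, was at 31.0 and 26.4 RPKM (129 and 111 reads), with an interval of -0.61 to 0.15. Rpl5 and Rpl11, which join the 5S rRNA and can bind the p53 regulator Mdm2, were at 39.5 and 43.9 RPKM and at 65.9 and 64.0 RPKM. The interval of Rpl5, 0.01 to 0.30, lay just above 0, and that of Rpl11, -0.26 to 0.17, spanned it. Rps6, the substrate of the S6 kinases, was at 62.6 and 66.2 RPKM (824 and 881 reads), with an interval of -0.06 to 0.22.

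Core transcripts share much of their sequence with pseudogenes, which bears on how reads could be assigned. For the 57 core genes with a GENCODE transcript within 10% of the recovered gene length, a median of 59.9% of all 50-base runs also occurred in the transcript of another annotated gene, with a range of 0 to 93.8%. A pseudogene transcript was among these for 56 of the 57 genes, with a median of 8 pseudogenes and a maximum of 119 for Rpl7a. The share was only weakly related to RPKM (Spearman's rho 0.12 and 0.18 in the WT-labelled and KO-labelled cells) and not to the absolute log2 ratio (rho -0.02), all descriptions across genes. Rps2 shared 79.0% of its runs with other genes, 68 pseudogenes among them, Rps3a1 71.0% and Rpl34 25.8%. Of the 7 ribosomal protein pseudogenes that the table lists by name, Rpl34-ps1 was at 68.9 RPKM (269 reads) and 42.4 RPKM (167 reads), with an interval of -0.99 to -0.42, so it was lower in the KO-labelled cells as its parent Rpl34 was. Since the runs that Rpl34 shares lie in Rpl34-ps1, reads of the pair may not be separable, and the values of Rps2, Rps3a1 and Rpl34 are uncertain to that extent. The other 6 pseudogenes, between 17.3 and 71.4 RPKM, had intervals that spanned 0.

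**Figure D3:**
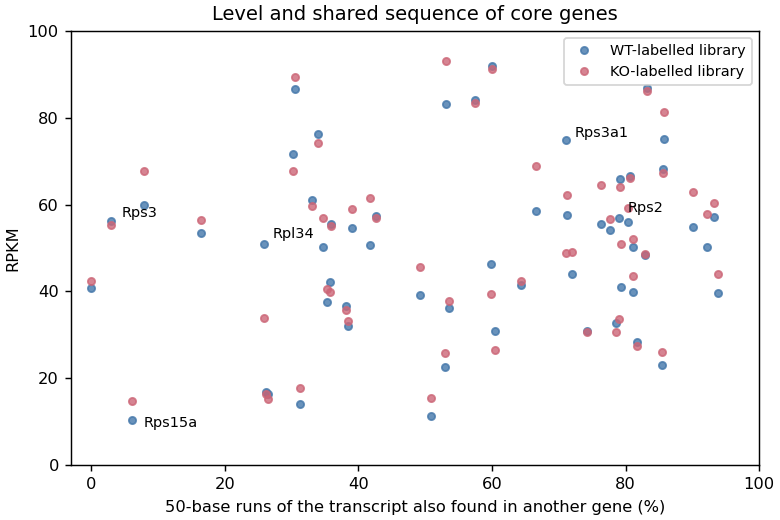
Percentage of 50-base runs of a core gene's transcript that also occur in another annotated gene (horizontal axis) and the gene's RPKM (vertical axis) for 57 core genes, in blue for the WT-labelled and red for the KO-labelled cells. Labels stand at the WT-labelled value. Rps3, with little shared sequence, lies within the range of the genes that share most of theirs.

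The TOP motif was looked for at the transcription starts that RefSeq gives on GRCm38.p6, as a C at the start followed by at least 4 more pyrimidines (C or T) on the strand of the gene. RefSeq starts were matched for 65 of the 86 members. It was present at 13 of 66 annotated starts of core genes (19.7%), at 1 of 10 starts of paralogs, at 0 of 75 starts of mitochondrial ribosomal proteins and at 823 of all 32851 starts (2.51%). The windows below show 10 bases before and 20 bases from the start, with the run in capitals. Rpl15 is the core gene with the longest run. Rps15a and Rpl38 had the 2 highest log2 ratios of the core genes, and Rps2 and Rps3a1 the 2 lowest. Rps27 and Rps27rt are parent and retrocopy.
Rpl15: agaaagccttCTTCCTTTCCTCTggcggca
Rps15a: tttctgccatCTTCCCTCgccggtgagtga
Rpl38: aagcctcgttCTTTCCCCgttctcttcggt
Rps2: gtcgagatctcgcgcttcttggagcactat
Rps3a1: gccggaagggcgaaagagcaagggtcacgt
Rps27: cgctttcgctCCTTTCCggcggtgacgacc
Rps27rt: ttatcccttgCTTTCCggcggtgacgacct
The windows lie, in this order, at chr14:18270967-18270996 (minus strand), chr7:118116128-118116157 (minus), chr11:114668570-114668599 (plus), chr17:24720053-24720082 (plus), chr3:86142649-86142678 (minus), chr3:90213629-90213658 (minus) and chr9:114982720-114982749 (minus). Rps2 and Rps3a1 had no such run at the annotated base. The Rps2 window does hold one (cttctt) that begins within 5 bases after the start, while the Rps3a1 window holds none. Among other core genes, Rpl19, Rpl22 and Rplp0, which were higher in the KO-labelled cells, had no run at the annotated base. Rplp2, lower by RPKM with an interval that spanned 0, had one. A relation of the run to the ratio was not tested. Annotated starts can be some bases off, and with the C allowed within 5 bases of the start the shares were 43.9% for core genes and 18.3% for all starts.

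The paralogs divided into a group made at levels like the core, a group at or near 0, and Rps4l. Of the 6 compared, 4 were higher and 2 lower, with a median log2 ratio of 0.02, which the value of Rps4l does not set. Identity below is that of the coding bases in an alignment with the parent.

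**Figure D4:**
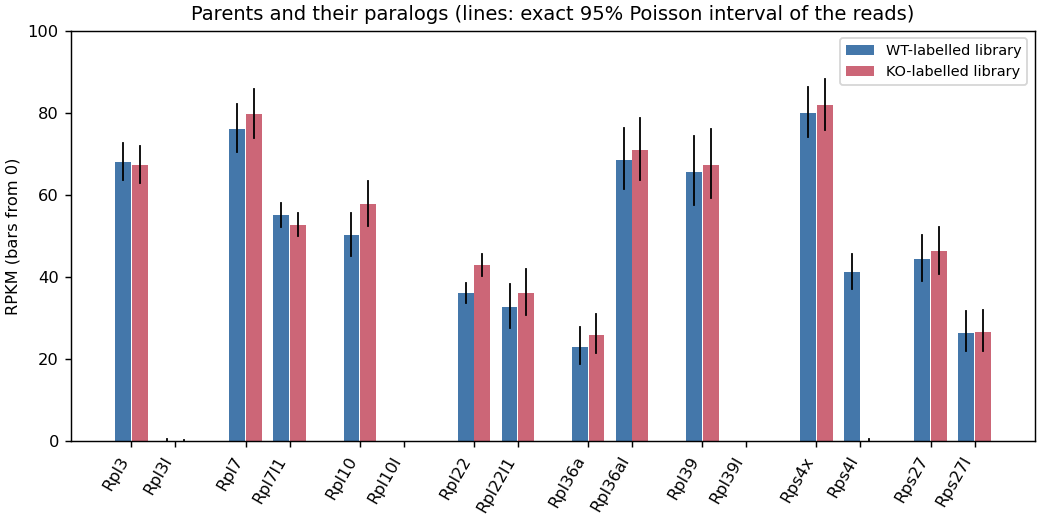
RPKM of 8 parent genes and, to the right of each, the paralog, in blue for the WT-labelled and red for the KO-labelled cells, on a linear scale from 0. Black lines are exact 95% Poisson intervals of the recovered reads. Rpl3l, Rpl10l and Rpl39l are at or near 0 in both libraries, and Rps4l has reads in the WT-labelled cells alone.

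Rps4l, an autosomal copy of the X-linked small subunit gene Rps4x, was at 41.2 RPKM (366 reads) in the WT-labelled cells and at 0 in the KO-labelled cells. With a floor of 3 reads in place of the 0, its level there would be 0.334 RPKM, which is 123-fold lower (-6.95 on the log2 scale). The exact interval of the read ratio also covers the counting error of the 366 reads. Its upper bound, at -6.64 on the log2 scale, is weaker. The authors' deposited table gives it a GFOLD value of -5.74. Its parent Rps4x was at 80.1 RPKM (663 reads) and 82.0 RPKM (686 reads), with an interval of the log2 read ratio of -0.12 to 0.19. Rps4l thus held 33.9% of the summed RPKM of the pair in the WT-labelled cells. Of the pair's reads it held 35.6% (95% exact binomial interval 32.6 to 38.6%) in that library, and in the KO-labelled cells 0 reads beside 686 of Rps4x allow up to 0.437%.

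GENCODE places Rps4l at chr6:148354656-148355598 of GRCm38 on the plus strand, as a single exon annotated as a transcribed processed pseudogene, while Rps4x has 7 exons on chromosome X. Aligned over 782 bases, the Rps4l transcript matched the coding sequence of Rps4x at 632 (80.8%), with a longest exact run of 35 bases, and no 50-base run was common to both. The frame of Rps4l that aligns with Rps4x begins with ATG and holds 262 codons before its first stop, the same number as Rps4x. The 30-base stretches below, from GENCODE M21 transcripts, 5′ to 3′ with the 11 differing bases in capitals, show how far apart the pair can be.
Rps4x: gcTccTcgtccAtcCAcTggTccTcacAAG
Rps4l: gcGccCcgtccGtcTGcCggCccGcacCGC
They lie at chrX:102187973-102188002 on the minus strand (coding bases 82 to 111) and at chr6:148354791-148354820 on the plus strand (transcript bases 136 to 165), both on GRCm38.

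Rps4l lies inside the span of Tmtc1, a gene on the opposite strand that encodes a membrane protein, and overlaps none of its annotated exons. Tmtc1 was at 1.38 RPKM (109 reads) in the WT-labelled and 0.1004 RPKM (8 reads) in the KO-labelled cells, with an interval of the log2 read ratio of -5.03 to -2.75. Both genes were lower in the KO-labelled cells. The next genes on either side with over 10 RPKM were closer to level, with Ergic2 at 32.1 and 29.8 RPKM, Far2 at 13.5 and 12.8 RPKM and Ipo8 at 31.6 and 31.3 RPKM. Of the lower ones, Caprin2 was at 9.29 and 7.81 RPKM and 4732416N19Rik at 1.73 RPKM (9 reads) and 0.570 RPKM (3 reads). Some markers of other cell types were also lower: in the neural list Sox2 was at 24.2 and 0.171 RPKM, and in the germ cell list Ddx4 was at 2.90 and 0.0368 RPKM. The germ cell list had sums of 8.40 and 7.69 RPKM, but these rested mostly on Sycp3, which was higher, at 5.09 and 7.66 RPKM. Of its 8 genes 3 were at 0 in the WT-labelled and 6 in the KO-labelled cells. Their part in the result was not tested, and fewer cells of a type and less RNA per cell cannot be told apart in such bulk RNA.

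The paralogs with levels like the core stayed close to equality. Rpl7l1, which takes part in the assembly of the large subunit, was at 55.1 RPKM (1356 reads) and 52.7 RPKM (1312 reads), with an interval of -0.17 to 0.05. Its parent Rpl7, with 67.9% identity, was at 76.2 RPKM (672 reads) and 79.7 RPKM (711 reads), so that Rpl7l1 held 42.0% and 39.8% of their summed RPKM, though 66.9% and 64.9% of their reads, which are not divided by gene length. Rpl22l1, with 76.5% identity to Rpl22, was at 32.6 RPKM (147 reads) and 36.01 RPKM (164 reads), with an interval of -0.19 to 0.47, and held 47.5% and 45.7% of the pair's RPKM. The exact Poisson intervals of Rpl22 and Rpl22l1 overlapped in each library. Those of Rpl7 and Rpl7l1 did not, so by RPKM Rpl7 stood higher by more than counting error. They were 70.5 to 82.1 and 52.2 to 58.1 RPKM in the WT-labelled cells, and 74.0 to 85.8 and 49.9 to 55.7 RPKM in the KO-labelled cells. Of the 50-base runs of Rpl7 66.8%, and of those of Rpl7l1 9.19%, occur in other genes. For Rpl22l1 and Rpl22 these are 61.6% and 5.19%. The levels and the shares of both pairs are uncertain to that extent.

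Rpl36al, with 87.7% identity to the X-linked Rpl36a, stood above its parent by RPKM. It alone did so among the paralogs with no 50-base run in common with the parent. Rpl36al was at 68.6 RPKM (335 reads) and 70.9 RPKM (350 reads), beside 22.9 RPKM (106 reads) and 25.9 RPKM (121 reads) for Rpl36a. It thus held 74.9% and 73.2% of the summed RPKM. Of the 50-base runs of Rpl36al 63.3%, and of those of Rpl36a 85.5%, occur in other genes, so both levels are uncertain to that extent. Rps27l, a known p53 target with 76.2% identity to Rps27, was at 26.5 RPKM (116 reads) and 26.6 RPKM (118 reads), and held 37.4% and 36.5% of the pair's RPKM. Rps27 itself was at 44.4 RPKM (241 reads) and 46.3 RPKM (254 reads). The intervals of Rpl36al (-0.17 to 0.27) and Rps27l (-0.37 to 0.39) spanned 0. Rps27rt, a retrocopy of Rps27 on chromosome 9, was at 59.2 RPKM (193 reads) and 60.7 RPKM (200 reads). Its coding sequence equals that of Rps27 at all 252 bases, and 91.1% of its 50-base runs occur in Rps27, so its level could not be separated from that of Rps27. Of the runs of Rps27 63.1% occur in Rps27rt, so the share of Rps27l in its pair with Rps27 is uncertain to that extent. No 50-base run was common to parent and paralog in any of the other 8 pairs.

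The 3 paralogs known from muscle or testis were not detectable at this depth or nearly so. Rpl3l, which replaces Rpl3 in heart and skeletal muscle, had 1 read in the WT-labelled cells (0.0664 RPKM) and 0 in the KO-labelled cells, beside 876 and 875 reads of Rpl3. Rpl10l, which takes the place of the X-linked Rpl10 in meiotic male germ cells, had 0 reads beside 377 and 439 of Rpl10, which allows it up to 0.796% and 0.683% of the pair's reads. Rpl39l, a testis form of Rpl39, had 0 reads beside 244 and 253, which allows up to 1.23% and 1.19%. Striated muscle markers summed to 11.7 and 8.15 RPKM over 10 genes, with 7 and 8 of them at 0, and germ cell markers to 8.40 and 7.69 RPKM over 8 genes, with 3 and 6 at 0. The muscle sums rested mostly on Acta1, at 9.64 and 7.40 RPKM (143 and 111 reads), and the germ cell sums mostly on Sycp3, as given above. Most of these markers were thus low in both libraries, as the 3 paralogs were, but Acta1 and Sycp3 were detected.

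Rps19bp1, matched by its symbol alone, encodes a nucleolar protein that binds Rps19 and modulates the deacetylase Sirt1. It was at 37.5 RPKM (294 reads) and 48.6 RPKM (385 reads), with an interval of 0.15 to 0.60, higher in the KO-labelled cells beyond counting error. Rps19 was at 36.2 and 37.8 RPKM, with an interval of -0.21 to 0.34.

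Editing was listed in 1 of the 83 compared members, Rpl7l1. This share is close to that of all compared genes, of which 1.25% had a listed site in the WT-labelled cells. Both of its sites lie in the 3′ UTR, on the minus strand and inside a repeat, 6 bases apart on chromosome 17 of mm9. At position 46911880, 15 of 43 reads (34.9%, 95% exact binomial interval 21.0 to 50.9%) were edited in the WT-labelled cells and 2 of 45 reads (4.44%, interval 0.543 to 15.1%) in the KO-labelled cells. The level was lower in the KO-labelled cells by Fisher's exact test, two-sided (p = 0.000312, adjusted over 55 sites p = 0.00078), a test that compares these 2 libraries and not the genotypes. Of the 55 sites that both lists hold with 10 or more reads, 33 (60%) passed, all of them lower in the KO-labelled cells. At position 46911886, 3 of 46 reads (6.52%, interval 1.37 to 17.9%) were edited in the WT-labelled cells, and the site was not listed for the KO-labelled cells. Adar, the other active RNA deaminase, was at 28.0 and 18.7 RPKM, and its part in these levels was not tested. The RNA level of Rpl7l1 was close to equal, as given above, and this gene shared 50-base runs with 520 other genes, 4 of them pseudogenes.

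The related gene lists put these values in context. The 77 mitochondrial ribosomal proteins, which serve a separate ribosome, had a median of 0.02, with 44 higher, 33 lower (57 and 20 in the authors' deposited table) and none 2-fold apart, and 8 intervals above 0 and 3 below. Their ends were Mrpl48 at 39.9 and 27.7 RPKM, Mrps10 at 23.2 and 16.8 RPKM, Mrpl55 at 17.9 and 23.5 RPKM and Mrpl38 at 26.5 and 41.3 RPKM. Higher by RPKM were 57.1% of the mitochondrial genes, against 50.8% of all compared genes. Intervals above and below 0 were 10.4% and 3.90% of the mitochondrial genes, against 27.6% and 27.1% of all genes with reads. No core gene of the cytoplasmic ribosome and no mitochondrial one was thus 2-fold apart, against 11.9% of all compared genes.

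Of 22 other mRNAs known for a TOP motif, such as those of translation factors, 17 were higher and 5 lower, with a median log2 ratio of 0.13 and 11 intervals above 0 and none below. Gas5, a noncoding RNA that hosts small nucleolar RNAs, was at 34.4 and 45.9 RPKM and Nap1l1, a histone chaperone, at 33.9 and 44.5 RPKM. At the lower end were Tpt1 at 54.1 and 50.3 RPKM and Eif3k at 47.2 and 44.3 RPKM. Of 30 ribosome biogenesis genes, 26 were higher and 4 lower, with a median of 0.18, and 15 intervals lay above 0 and 1 below. Their ends were Utp20 (25.1 and 40.6 RPKM) and Nle1 (21.5 and 32.0 RPKM), both needed for subunit assembly, and Bysl (37.8 and 32.9 RPKM) and Polr1d (45.9 and 43.9 RPKM). Both lists had medians above that of the core, and the difference between lists was not tested. Both also held more reads, with medians of 892 and 755 in the WT-labelled cells, against 341 for the core. Their intervals were narrower, reaching a median of 0.13 and 0.14 to either side. For the core this was 0.22, and over all compared genes 0.19.

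Among the S6 kinases, whose symbols resemble those of the members, 8 of 10 were compared, with 4 higher, 4 lower and a median of 0.04. Rps6ka1, a kinase of the RSK family, was at 4.19 RPKM (129 reads) and 16.8 RPKM (521 reads), at least 2-fold higher in the KO-labelled cells, with an interval of 1.72 to 2.29. Rps6kb1, which phosphorylates Rps6, was at 19.6 and 26.1 RPKM, while Rps6ka4 was at 55.5 and 51.8 RPKM and Rps6ka5 at 12.9 and 11.4 RPKM. Of 16 compared regulators tied to ribosomal proteins, Rps19bp1 among them, 13 were higher (81.3%, against 50.8% of all compared genes) and 3 lower. Their median was 0.20, and 11 intervals lay above 0 and 2 below among the 15 with reads. These are 73.3% and 13.3%, against 27.6% and 27.1% of all genes with reads. The list had a median of 814 reads in the WT-labelled cells, against 341 for the core, and narrower intervals. Mdm2 was at 35.6 and 50.9 RPKM and Hbs1l, a ribosome rescue factor, at 17.3 and 23.9 RPKM, while Tsc2, an inhibitor of mTOR signalling, was at 41.2 and 35.4 RPKM and Gtpbp2 at 29.1 and 24.9 RPKM.

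**Figure D5:**
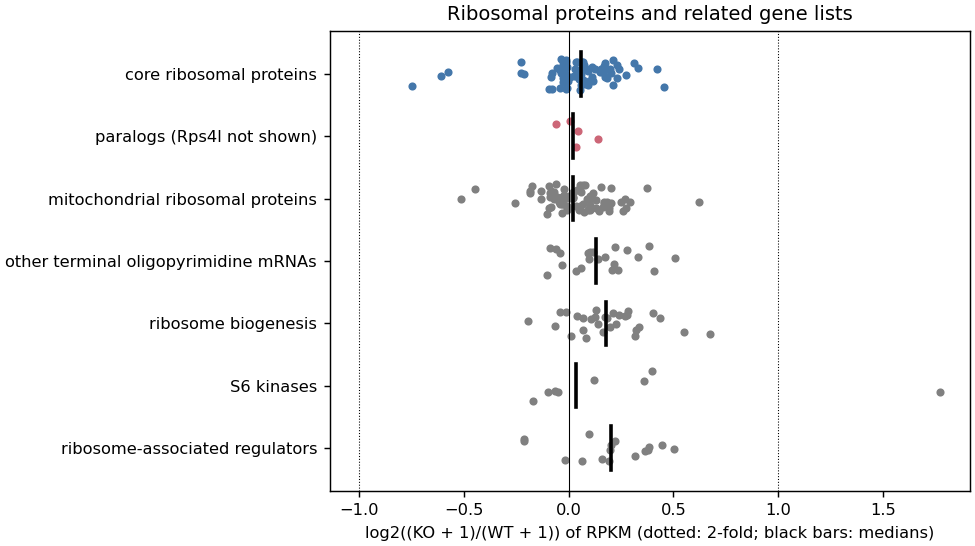
Log2 ratio of RPKM plus 1, KO-labelled over WT-labelled, for each compared gene of the core, the paralogs and 5 related lists, with the points spread vertically for sight only. Black bars are list medians and dotted lines mark 2-fold. Core medians and the bulk of core genes lie close to 0, with Rps2, Rps3a1 and Rpl34 apart on the left, and Rps4l, at -5.40, is beyond the plotted range.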

How the data were processed

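The expression values are RPKM per gene and library, with a GFOLD value, a log2 fold change and an E-FDR column, deposited by the authors in a single table. The E-FDR, a q-value-like score, was 1 for every gene in the deposited table and was not used. Edited sites come from 2 deposited lists with read counts and editing levels as a fraction, per the file headers. STAR 2.4.0d, SAMtools and mm9 are named, per the submitters' processing notes. Not given in the sources used here are their roles, the gene annotation, strand, read length and the treatment of repeated or multiply aligned reads.

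Whole reads and gene lengths were recovered as the integers that give both RPKM values and the deposited log2 fold change of a gene. They were unique for 17398 of 17981 genes (96.8%), but not for Rps10. The search was tested on simulated data with 5958 genes, where 93.9% had a unique answer, all of them correct. Recovered counts are thus inferred from the deposited values. No count model was run, since there is 1 library per genotype. Ratios use a pseudocount of 1 RPKM, and genes whose larger value is under 1 RPKM were left out. Intervals on read ratios are exact (Clopper-Pearson, 95%), conditional on the sum of both libraries. PCR copies cannot be told from separate molecules.

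Named were all paralogs and their parents, the 5 core genes with the highest and the 5 with the lowest ratio, the 3 highest and 3 lowest by mean RPKM, members 2-fold apart or at 0, and in each related list the 2 highest and 2 lowest ratios among genes with at least 10 RPKM. Rpl5, Rpl11, Rps6 and Rps19, Rpl34-ps1, the neighbours of Rps4l, Adar, and the marker genes Sox2, Ddx4, Sycp3 and Acta1 were added after their values were seen. The members and the lists were chosen with earlier results of these data known. Sequences are from RefSeq (GRCm38.p6) and GENCODE M21 (GRCm38), while the expression and editing files use mm9. Python 3.11.15, pandas 2.3.3, SciPy 1.17.1, Biopython 1.88 and matplotlib 3.10.9 were used. The alternatives were other pseudocounts, filters, centring, the GFOLD value, leaving out genes of high read density, another member rule, reads in place of RPKM for shares, a minimum of 10 reads per site and a wider search for the TOP motif. Some genes are not reported here by name.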

Additional observations from a re-analysis of the deposited data

How the results depend on the processing

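The counts of members higher by 2-fold (0) and lower by 2-fold (1) were the same under all 8 alternatives. The core median log2 ratio lay between 0.00 (GFOLD values) and 0.06, and the paralog median between 0.00 and 0.02. With the C of the TOP motif allowed within 5 bases of the start, its share was 43.9% for core genes, 22.7% for mitochondrial ribosomal proteins and 18.3% for all starts. By GFOLD, Rps2 (-0.48), Rps3a1 (-0.36), Rpl34 (-0.25) and Rps7 (0) moved towards 0. Rps4l was at -8.69, -3.21 and -5.74 with a pseudocount of 0.1 RPKM, of 5 RPKM and by GFOLD. By reads in place of RPKM, Rpl7l1 held 66.9% and 64.9% and Rpl22l1 14.7% and 13.8% of their pairs, since reads are not divided by length, which puts Rpl7l1 above Rpl7 by reads and below it by RPKM. Runs of 36 and 75 bases, chosen after seeing the data, gave median shared shares of 63.0% and 51.2%. No paired analysis was possible because there is 1 library per genotype, with no replicate numbers. Leaving out a replicate was not possible for the same reason. Depth limits genes such as Rpl38 and Rps21, whose intervals are wide.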
